A study of Mus musculus with 4 samples.

Results

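Complement C1q, C3 and their regulators were followed through single-cell RNA-Seq (scRNA-Seq) of mouse fracture callus and trabecular bone, with and without excess glucocorticoid (GC). The set holds 9 genes, taken by their symbols out of the 32285 genes in the count matrices: the C1q chains C1qa, C1qb and C1qc, the components C4b, C3, Cfb and Cfp, and the receptors C3ar1 and C5ar1. The study asked how excess GC changes the cells of healing and of trabecular bone. There were 4 libraries, 1 for each tissue and treatment: callus control, callus GC, trabecular control and trabecular GC. All came from 20-week-old male C57BL/6J mice sampled at week 2. GC mice received prednisolone, a synthetic GC, at 6.25 mg/kg/d, and control mice received placebo. GEO's labels describe slow-release pellets for all 4 libraries, while the methods of the study describe daily injection in its fracture model, and the number of mice behind a library is not stated. The mice carried no transgene or deletion by the labels.

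Complement is a cascade of plasma and tissue proteins that tags targets for uptake and calls in phagocytes. C1q, built from the products of C1qa, C1qb and C1qc, recognizes antibodies, dying cells and other surfaces and starts the classical pathway. That pathway cleaves C4 and then C3, the component on which every route converges. Factor B (Cfb) and properdin (Cfp) belong to the alternative pathway, which amplifies C3 cleavage, and the peptides C3a and C5a signal to leukocytes through the receptors encoded by C3ar1 and C5ar1. Liver supplies most plasma complement, whereas C1q is made mainly by macrophages and related myeloid cells. Osteoclasts, the bone-resorbing cells, come from the same myeloid lineage, and C3 and C5a signals are known to act on bone cells.

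The C1q chains are encoded side by side on the minus strand of chromosome 4, at chr4:136880129-136898803 of GRCm38, a stretch of 18675 bases. Of the 9 genes, 6 had a promoter entry in the RefSeq sequence table, and C1qa, C4b and Cfb did not. Those of C1qb, C1qc and C3 are shown because they hold an ETS or C/EBP motif, described below. The highest levels of these genes lay in myeloid or stromal cells, and a link to the motifs was not tested. Each is read 5′ to 3′ on the gene's strand from RefSeq (GRCm38.p6), with the motif in capitals. The letters searched on both strands were GAGGAA, an ETS core of the kind PU.1 binds, and TTNNGCAA, of the kind C/EBP factors bind, where N is any base. C1qb (chr4:136886201-136886450, minus strand) held GAGGAA 30 bases before the RefSeq start. C1qc (chr4:136893066-136893164, minus strand, the 99 bases that lie outside the annotated gene) held its reverse, TTCCTC, 193 bases before the RefSeq start. C3 (chr17:57228137-57228386, minus strand) held TTNNGCAA on the other strand, read here as TTGCGAAA, 45 bases before the start.
C1qb: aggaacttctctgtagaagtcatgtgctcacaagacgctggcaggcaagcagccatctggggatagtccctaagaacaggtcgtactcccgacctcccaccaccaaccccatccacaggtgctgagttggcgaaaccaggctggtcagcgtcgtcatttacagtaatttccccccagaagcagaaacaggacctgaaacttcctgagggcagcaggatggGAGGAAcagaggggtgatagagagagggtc
C1qc: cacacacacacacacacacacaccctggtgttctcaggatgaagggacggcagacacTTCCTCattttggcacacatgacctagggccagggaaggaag
C3: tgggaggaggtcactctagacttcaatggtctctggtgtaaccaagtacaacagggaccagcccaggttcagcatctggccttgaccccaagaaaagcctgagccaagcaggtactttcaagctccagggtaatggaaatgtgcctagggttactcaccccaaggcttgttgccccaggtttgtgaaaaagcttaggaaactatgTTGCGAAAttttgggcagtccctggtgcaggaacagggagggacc
Among all 32851 promoters of the table, 23.3% hold GAGGAA and 9.56% hold TTNNGCAA, so neither is rare. The letters ACANNNTGT of the glucocorticoid receptor's site, found in 5.84% of promoters, were in none of the 6 windows. These windows ran from 48 bases, for C5ar1, to 250 bases. A match here is only a description of letters.

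After filtering, the libraries held 6705 (callus control), 6890 (callus GC), 3803 (trabecular control) and 4601 (trabecular GC) cells, with median unique molecular identifier (UMI) counts per cell of 3287 to 6328. Between 7 and 10 cell barcodes were shared by any pair of libraries. Cells were clustered within each tissue without the complement genes, and classes were named from fixed markers. Callus held cartilage and bone-forming cells (2645 control, 3124 GC) and Col2a1 at 43313 and 28122 CPM (counts per 1000000 UMIs), as fits cartilage callus. Trabecular bone was mostly neutrophils (2504 and 3138 cells), with S100a8 at 89754 and 74361 CPM and the osteoblast gene Bglap at only 8.86 and 0.454 CPM. Col1a1, the type I collagen gene of osteoblasts and stromal cells, stood there at 24.2 and 112 CPM, against 5273 and 9271 CPM in callus. Trabecular B cells numbered 310 in control and 16 in GC. Each level below is the CPM of a gene over the summed UMIs of a class in 1 library, with an exact Poisson 95% interval in brackets. Because each group is 1 library, intervals cover counting error only, no test between conditions was possible, and a ratio compares 2 libraries.

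C1q was concentrated in 1 small population of the callus. Macrophages, a single cluster of 83 control and 85 GC cells, were 1.24% and 1.23% of the callus cells and held 78.1% and 83.9% of all C1q UMIs. Their summed C1q level was 3379.9 CPM in control [3234 to 3530] and 3398 CPM in GC [3236 to 3567]. The cluster was named from macrophage markers other than C1q: Ms4a7 stood at 539 and 682 CPM, Mrc1 at 275 and 312 CPM, and Apoe at 3862 and 4345 CPM, while Cd163 was at 0 and 2.07 CPM and Timd4 at 0 in both. The C1q level was 516 times that of all other callus cells together (480 to 556), at 474 times in control and 592 times in GC. It was 65.8 times the level of osteoclasts over both libraries (57.4 to 75.8). By library this ratio was 49.1 in control (41.6 to 58.2) and 104.8 in GC (81.9 to 136.1).

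**Figure D1:**
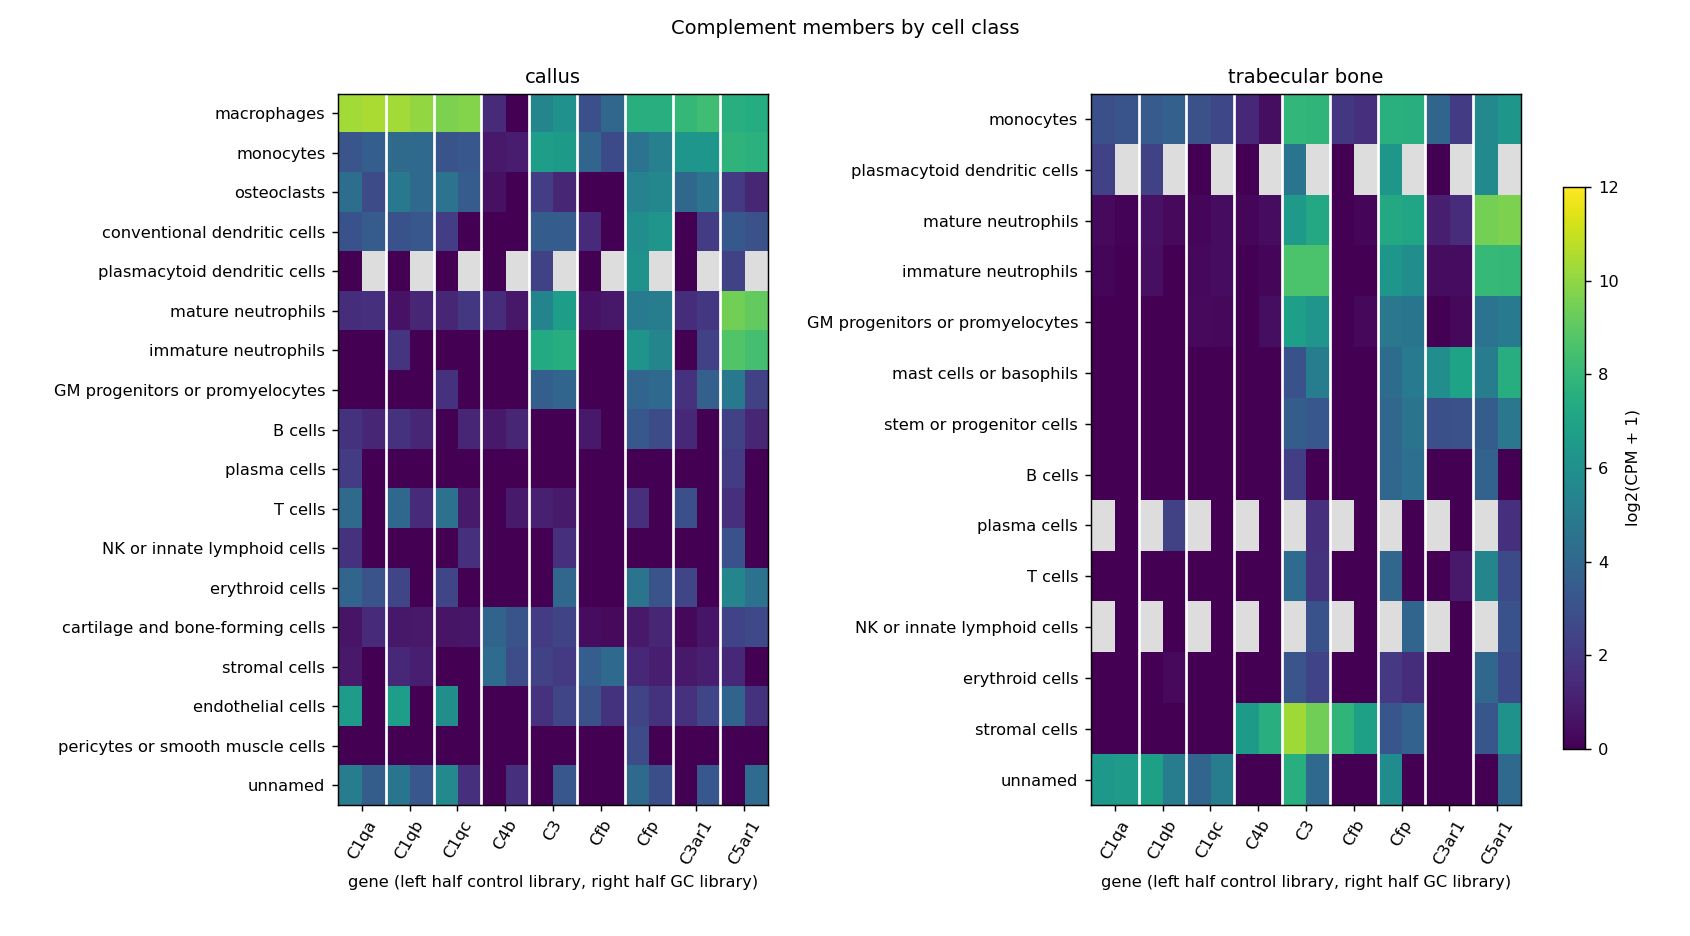
Level of each of the 9 genes by cell class in callus and trabecular bone, as log2(CPM + 1), with the control library in the left part and the GC library in the right part of each box. Grey marks classes with too few cells. The C1q genes are brightest in callus macrophages, at 787 to 1446 CPM, and C5ar1 in the neutrophils of both tissues.

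The 3 chains went together within the macrophage cluster. C1qa stood at 1299 CPM in control and 1446 CPM in GC, C1qb at 1294 and 1065 CPM, and C1qc at 787 and 887 CPM. At an equal depth of 1000 UMIs per cell, 67.5% of control macrophages (exact binomial interval 56.1 to 77.5, n = 80) and 66.3% of GC macrophages (55.0 to 76.3, n = 83) held a C1q UMI. All 3 genes were seen in 26.3% and 24.1% of these cells. Without thinning, 72.3% and 72.9% of the macrophages, of median depth 6025 and 5053 UMIs, held C1q. In callus B cells, which make no C1q, the thinned share was 0.169% in control and 0.573% in GC at median depths of 1919 and 1681 UMIs. The cluster was mixed in C1q content, and 32.5% and 33.7% of its cells held none at this depth. That share depends on the edge of the cluster: with other cell filters or Leiden resolutions the macrophages numbered 57 to 64 in control and 57 to 69 in GC.

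**Figure D2:**
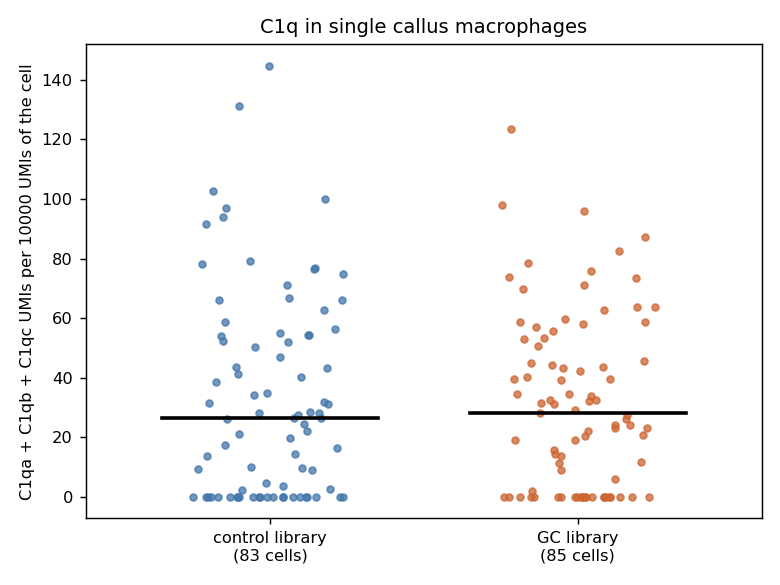
C1q UMIs (C1qa, C1qb and C1qc summed) per 10000 UMIs in each cell of the callus macrophage cluster, 83 control and 85 GC cells, with the median as a line. The medians are 26.6 and 28.3 and the highest cells reach 145 and 124, while a part of the cells in each library sits at 0.

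Per cell, C1q ranged from 0 to a highest value of 145 per 10000 UMIs in control (median 26.6) and of 124 in GC (median 28.3). The values thus spread widely among cells of each library. Shallow cells shape this range: the highest control value came from 21 C1q UMIs in a cell of 1450 UMIs. Cells are not replicates, so the spread does not measure the difference between treatments. Cells with 2 or 3 of the C1q genes after thinning (85 cells over both libraries) were compared with those with 0 or 1 (78 cells). C3ar1 was found in 24.7% (16.0 to 35.3) of the former and 14.1% (7.26 to 23.8) of the latter, and Cfp in 21.2% (13.1 to 31.4) and 10.3% (4.53 to 19.2). C5ar1 was found in 15.3% (8.40 to 24.7) and 19.2% (11.2 to 29.7). All these pairs of intervals overlapped.

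Between treatments the summed C1q level in callus macrophages was nearly equal. The ratio of GC to control was 1.01 (0.942 to 1.07), a log2 ratio of 0.01. The chains moved apart by small amounts: C1qa was 1.11 times its control level (1.004 to 1.23), C1qc 1.13 times (0.987 to 1.29) and C1qb 0.823 times (0.735 to 0.921). C1qb accordingly gave 38.3% of the control macrophages' C1q UMIs (36.2 to 40.4) and 31.3% of the GC macrophages' (29.1 to 33.7), and C1qa gave 38.4% and 42.5%. Of the 7 members with at least 50 UMIs over both libraries in this class, 0 differed by 2-fold or more, where 3.83% of the 3262 genes measured did.

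Outside macrophages, C1q was thin and often sat in single cells. Callus osteoclasts held 153 C1q UMIs in 112 control cells (68.9 CPM) and 66 in 119 GC cells (32.4 CPM), a ratio of 0.471 (0.347 to 0.633). The control count included 66 UMIs from 1 cell, and the 2 highest cells gave 58.2% of it. With mitochondrial UMIs limited to 5%, the summed log2 ratio was 0.0796 in place of -0.98. On the log2(CPM + 5) scale C1qa alone was past 2-fold there, at 18.9 CPM in control and 5.90 CPM in GC, 1 of 5 members measured beside 1.91% of all genes. In callus monocyte cluster 4, 8 monocyte markers passed the naming rule. Its 10 leading genes, however, held 0 monocyte markers and 1 immature neutrophil marker. Callus monocytes were therefore not compared as a class and are given by cluster. The larger, cluster 4, held 84 and 76 C1q UMIs, at 35.4 and 40.2 CPM. Control callus barcodes of at most 100 UMIs, which hold free RNA, had summed C1q at 46.9 CPM, above the control level of cluster 4 and under that of osteoclasts, and the part of free RNA in these values was not tested. Control endothelial cells held 113 C1q UMIs, 112 of them in 1 of 52 cells, and 0 UMIs were found in 79 GC endothelial cells. Control T cells held 48, 44 of them in 1 cell, against 3 in GC. These last class ratios therefore rest on 1 cell each. Cartilage and bone-forming cells as a class had C1qa at 0.530 and 1.67 CPM, under the 17.2 CPM of C1qa among those control barcodes. In GC, 56 of the 72 C1qa UMIs of the class lay in cluster 2, where the level was above that of the class. That cluster had 17 control and 1072 GC cells and a median of 2447 UMIs per cell. The GC callus matrix lists no empty barcodes to set beside it.

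No trabecular cluster was named macrophages by the marker rule, although 1 small monocyte cluster (number 27, with 4 control and 29 GC cells) had Apoe and Csf1r among its 10 leading genes. Trabecular monocytes held 115 C1q UMIs in control (23.4 CPM) and 130 in GC (24.6 CPM), which was 77.7% and 84.4% of all C1q UMIs there. They lay in 11 of 290 and 13 of 312 monocytes, and the 2 highest cells gave 57.4% and 58.5% of them. Free RNA in the barcodes of at most 100 UMIs held summed C1q at 9.38 and 19.0 CPM. The macrophage markers were uneven in these control monocytes. Csf1r, Cd68, Apoe and Selenop stood at 191, 183, 164 and 102 CPM, and Trem2, Adgre1 and Fcgr1 at 88.1, 52.0 and 32.6 CPM. Axl was at 9.17 CPM, and Ms4a7, Mertk, Mrc1, Cd163, Timd4 and Folr2 lay between 0.204 and 4.48 CPM. In the GC monocytes Apoe was higher, at 248 CPM, as was Trem2, at 98.6 CPM. The other markers named here were lower in GC, with Selenop at 46.5 CPM and Fcgr1 at 18.6 CPM. Over all cells, C1q was 4.34 CPM in trabecular control and 4.11 CPM in trabecular GC, against 32.3 and 35.3 CPM in callus. The callus level was 7.45 times the trabecular level in control (6.31 to 8.85) and 8.58 times in GC (7.28 to 10.2). Past 2-fold between the tissues, in either direction, were 27.1% of all genes in control and 28.3% in GC. A difference of 2-fold was therefore common, and the share of genes as far apart as C1q was not computed.

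C4b, the component that C1's proteases cleave first, had most of its UMIs in skeletal cells. Cartilage and bone-forming cells held 96.6% of its callus UMIs in control and 96.5% in GC. Its level there was 13.5 CPM in control [12.6 to 14.4] and 7.63 CPM in GC [6.82 to 8.50]. The intervals did not overlap (ratio 0.565, 0.496 to 0.642). Most of all callus UMIs also lay in this class, so the share alone does not show that C4b was concentrated there. Over all callus cells but macrophages, C4b was 11.6 CPM in control and 6.19 CPM in GC. Free RNA in the control callus barcodes held C4b at 13.8 CPM [10.8 to 17.3], close to the control level of the class, and its part was not tested. The clusters within the class differed. In the cluster led by Ucma, a cartilage gene, C4b was 26.8 CPM in control and 25.8 CPM in GC with overlapping intervals, but the cluster numbered 761 control and 206 GC cells. In the cluster led by Col1a1 and Bglap, C4b went from 12.03 CPM [9.14 to 15.6] to 3.33 CPM [1.94 to 5.33] in the GC library. In another, led by Ibsp and Col2a1, it was 8.12 and 11.3 CPM. Cluster 2, led by Serpinh1 and Tnfrsf11b, was almost wholly from GC, with 17 control and 1072 GC cells, and held C4b at 1.56 CPM in GC (6 UMIs) and 0 UMIs in control. Cluster 20, led by Cxcl12 and Ibsp, had 0 control and 165 GC cells and 2.99 CPM (5 UMIs). The class ratio therefore joins levels within clusters with the share of each cluster.

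In stromal cells, C4b was 17.3 CPM in control callus (22 UMIs) and 6.14 CPM in GC callus (6 UMIs), and in trabecular bone 92.4 CPM (11 UMIs in 13 cells) and 181 CPM (43 UMIs in 33 cells). The trabecular intervals, 46.1 to 165 and 131 to 243 CPM, overlapped. Over all cells C4b was lower in GC callus, at 11.5 and 6.14 CPM (ratio 0.535, 0.471 to 0.606), and higher in GC trabecular bone, at 0.587 and 1.39 CPM (ratio 2.37, 1.39 to 4.18, 20 and 52 UMIs). Stromal cells gave 11 of the 20 and 43 of the 52 trabecular UMIs, so that ratio joins their number, 13 and 33 cells, with their level. C4a, the near-identical neighbor of C4b on chromosome 17, held only 24 and 34 UMIs in callus, and how reads common to the pair were counted leaves both values uncertain.

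C3, the central component, was a gene of immature neutrophils, monocytes and trabecular stromal cells. In trabecular bone its order was the same in both libraries at the top. Stromal cells stood at 1251 CPM in control (149 UMIs in 13 cells) and 668 CPM in GC (159 UMIs in 33 cells), immature neutrophils at 393 and 391 CPM, and monocytes at 248 and 230 CPM. Neighbors in this order had intervals that did not overlap. Mature neutrophils followed with 89.3 CPM in control and 148 CPM in GC. In callus, immature neutrophils again exceeded mature ones, at 158 and 175 CPM against 41.9 and 103 CPM, and monocyte clusters 4 and 15, led by Lyz2 and by Cd36, stood at 109 and 102 CPM and at 33.4 and 34.3 CPM. Callus stromal cells, unlike trabecular ones, held C3 at only 3.94 and 3.07 CPM (5 and 3 UMIs).

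C3 was higher with GC in mature neutrophils, in both tissues as a class. In callus the level was 41.9 CPM in control [33.5 to 51.7] and 103 CPM in GC [86.8 to 121], 2.46 times higher (1.87 to 3.24). C3 was the 1 of 3 members measured there that passed 2-fold, where 7.99% of all genes did. The class was split between clusters: 1024 of the 1563 control cells lay in a cluster led by S100a9 and Il1b that held 24 GC cells, and 1189 of 1213 GC cells lay in another that held 539 control cells. Inside the latter, C3 was 34.9 CPM in control [22.4 to 51.9] and 105 CPM in GC [88.6 to 123], so the difference was present among cells of 1 cluster. C3 in callus immature neutrophils had overlapping intervals, with a ratio of 1.10 (0.783 to 1.56).

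In trabecular mature neutrophils, C3 was 1.66 times higher in GC (1.53 to 1.81), at a log2 ratio of 0.70. In this class 3.69% of all genes passed 2-fold, 0 of 3 members did, and the median log2 ratio of all genes was itself 0.23, with 75.1% of genes higher in GC. Here the clusters came almost wholly from 1 library each. Control cells lay in clusters 2, 3 and 7 and GC cells in clusters 0, 1, 4 and 8. Cluster 1, named mature, had the immature markers Ngp, Ltf and Camp among its leading genes, with 15 control and 689 GC cells. Cluster 6, named immature, was also led by these genes, with 466 control and 43 GC cells. The border between the classes therefore ran between similar clusters of unlike library share, and its part in the class ratio was not tested. In the clusters with at least 15 cells of each library, C3 was 160 CPM in control and 188 CPM in GC (cluster 1), 58.3 and 66.6 CPM (cluster 2), and 132 and 89.1 CPM (cluster 3). Without the clusters that came at least 95% from 1 library, the log2 ratio of the class was -0.20. The highest GC value was 267 CPM in cluster 8, led by Il1b, Cxcl2 and Ptgs2 and with 1 control cell. Cluster 7, also led by Il1b, held 463 control and 7 GC cells and stood at 62.4 CPM in control. With immature neutrophils included, C3 was 254 CPM in control and 225 CPM in GC, a ratio of 0.884 (0.848 to 0.922), and immature cells numbered 898 and 475.

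**Figure D3:**
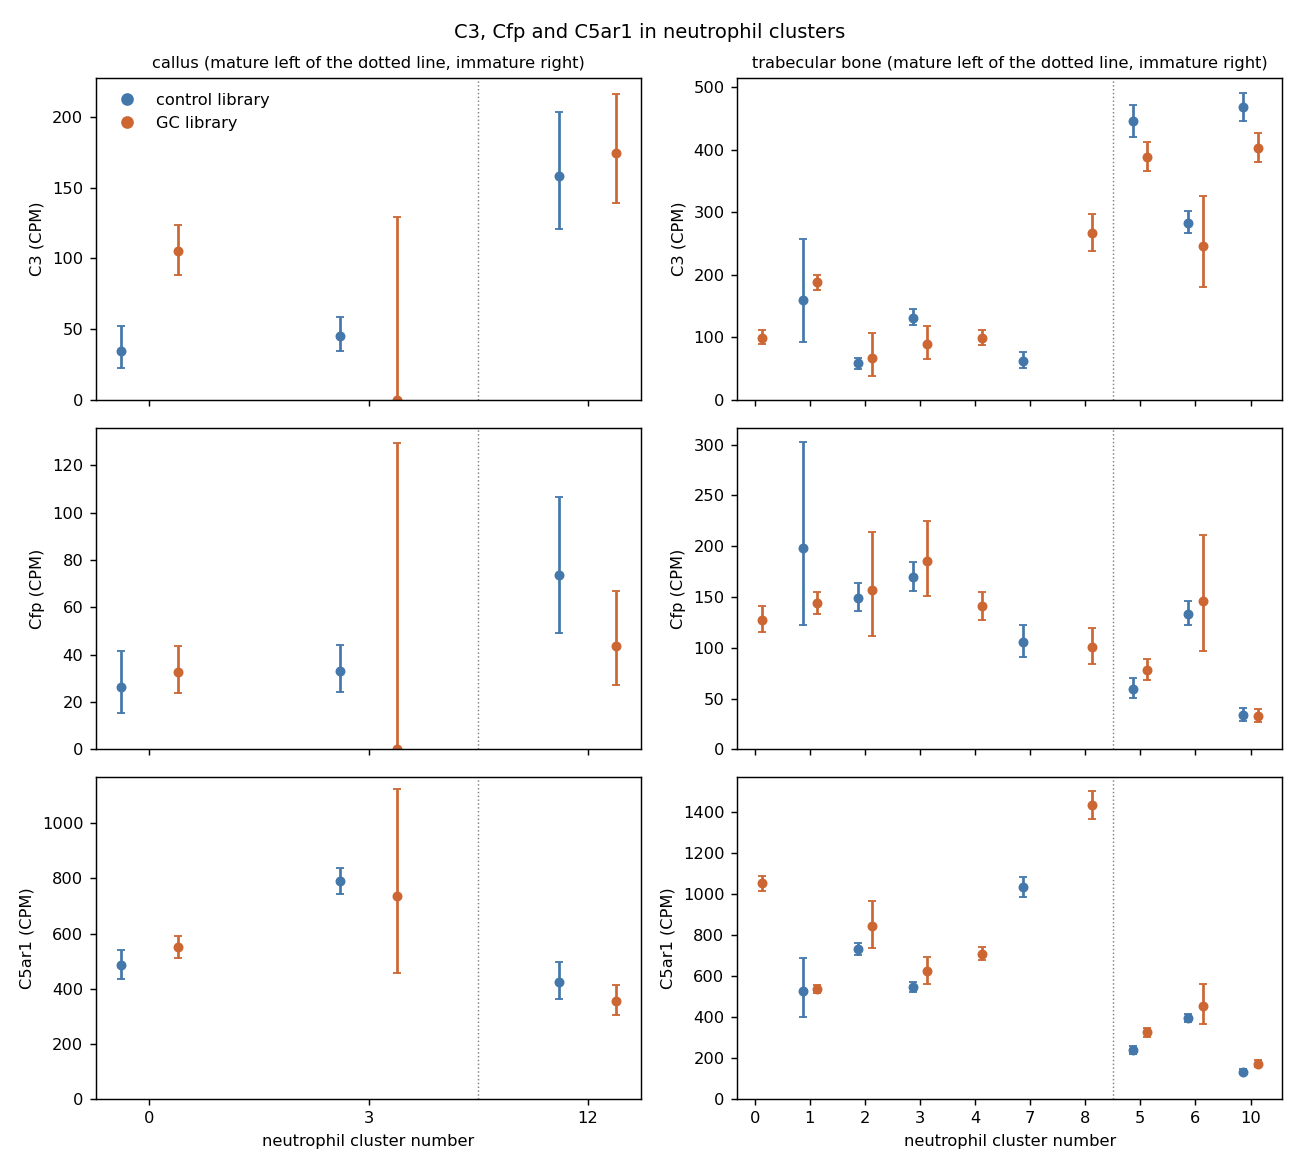
C3, Cfp and C5ar1 in the neutrophil clusters of callus and trabecular bone, as CPM with exact Poisson 95% intervals, for each library with at least 15 cells in the cluster. In trabecular cluster 8 the GC library has C3 at 267 CPM, and C3 reaches 388 to 468 CPM in the immature clusters 5 and 10 of both libraries.

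In trabecular monocytes, C3 in GC over control had a ratio of 0.926 (0.854 to 1.003), and trabecular granulocyte-monocyte progenitors went from 108 to 76.7 CPM, a ratio of 0.709 (0.617 to 0.814). The trabecular barcodes of at most 100 UMIs, which hold free RNA, had C3 at 153 CPM in control and 105 CPM in GC. Those values lay above both progenitor levels and above the 89.3 CPM of control mature neutrophils, and the part of free RNA in these levels was not tested. Cartilage and bone-forming cells held 32.1% and 28.4% of callus C3 UMIs at 3.33 and 4.54 CPM, a ratio of 1.36 (1.12 to 1.66), under the 13.005 CPM of C3 in the control callus barcodes of at most 100 UMIs. Callus macrophages had C3 at 43.4 and 66.2 CPM, from 26 and 32 UMIs, with overlapping intervals. Over all cells, C3 was 8.54 and 12.4 CPM in callus (ratio 1.45, 1.304 to 1.62) and 188 and 163 CPM in trabecular bone (0.868, 0.838 to 0.899). Callus held much less C3 than trabecular bone over all cells, at 0.0455 of the trabecular level in control and 0.0761 in GC. Among mature neutrophils alone the figures were 0.469 (0.371 to 0.587) and 0.693 (0.581 to 0.820). Of all genes in that class, 41.3% in control and 38.4% in GC passed 2-fold between the tissues.

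Cfb, the protease of the alternative C3 convertase, was rare. Trabecular stromal cells had 227 CPM in control and 113 CPM in GC, 27 UMIs each, with overlapping intervals (149 to 330 and 74.7 to 165). Callus stromal cells had 11.0 and 16.4 CPM, and callus monocyte cluster 4 had 15.2 CPM (36 UMIs) and 6.34 CPM (12 UMIs). Over all cells the level was between 0.846 and 1.203 CPM in the 4 libraries.

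Cfp, which stabilizes that convertase, was spread over myeloid cells. In callus it was highest in macrophages among the classes with 50 or more cells per library. The macrophage level was 183 CPM in control and 186 CPM in GC (ratio 1.01, 0.759 to 1.35). The limit of 50 cells was used for this ranking only, while the general minimum was 15 cells in each library. The ranking therefore does not show that macrophages were highest of all callus classes. Smaller classes are not ranked here and their Cfp levels are not given. Among these are granulocyte-monocyte progenitors or promyelocytes (38 control and 46 GC cells) and plasmacytoid dendritic cells (53 and 10). Conventional dendritic cells had 57.2 and 76.7 CPM, osteoclasts 39.2 and 46.7 CPM, and mature neutrophils 30.7 and 31.9 CPM. The macrophage level was 4.68 times that of osteoclasts in control (3.503 to 6.28) and 3.99 times in GC (2.95 to 5.38). Monocyte cluster 4 had 25.3 and 39.1 CPM. In trabecular bone Cfp stood at 198 and 183 CPM in monocytes, 149 and 137 CPM in mature neutrophils, and 78.4 and 57.9 CPM in immature neutrophils. The trabecular barcodes of at most 100 UMIs, which hold free RNA, had Cfp at 81.0 CPM in control and 62.5 CPM in GC. Those values lay above the immature neutrophil level of the same library. The part of free RNA in the Cfp levels and ratios was not tested.

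The Cfp ratios were close to 1 in trabecular monocytes (0.925, 0.846 to 1.01) and in mature neutrophils (0.920, 0.855 to 0.990). The immature class had a lower ratio, 0.739 (0.649 to 0.840), but its clusters did not share that direction: Cfp was 59.7 and 78.2 CPM in cluster 5, 134 and 146 CPM in cluster 6, and 34.3 and 32.9 CPM in cluster 10, control first. Cluster 6 gave 466 of the 898 control cells and 43 of the 475 GC cells, and the class ratio changed sign under 7 alternative settings. Mature neutrophils of callus had Cfp at 0.206 (0.157 to 0.265) of the trabecular level in control and 0.233 (0.169 to 0.313) in GC.

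C3ar1, the receptor of C3a, followed macrophages and monocytes in callus. It stood at 253 CPM in control macrophages [215 to 297] and 323 CPM in GC macrophages [274 to 377], a ratio of 1.27 (1.01 to 1.602), with intervals that overlapped. Monocyte cluster 4 had 86.0 and 87.7 CPM and osteoclasts 15.8 and 22.6 CPM. The macrophage level was 16.1 times that of osteoclasts in control (11.1 to 23.9) and 14.3 times in GC (10.2 to 20.3). In callus B cells, 2 UMIs were found in control and 0 in GC.

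In trabecular bone C3ar1 was highest in mast cells or basophils, at 57.4 CPM in control (16 UMIs, 30 cells) and 124 CPM in GC (47 UMIs, 42 cells), a ratio of 2.17 (1.21 to 4.10). Monocytes went the other way, from 14.1 CPM [10.9 to 17.8] to 3.41 CPM [2.02 to 5.39], a ratio of 0.243 (0.136 to 0.412) from 69 and 18 UMIs. The monocyte UMIs lay mostly in cluster 11, led by Fn1 and S100a4, at 34.2 and 6.48 CPM. C3ar1 was the 1 of 7 members measured in monocytes past 2-fold, beside 0.808% of all genes there. The thinned share of monocytes with C3ar1 was 1.38% and 0.641%, too few cells to bear on the difference. The share of these UMIs that the highest cells gave was not computed for C3ar1. Of the macrophage markers named above for trabecular monocytes, all but Apoe and Trem2 were also lower in GC. Whether C3ar1 went with them was not tested.

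C5ar1, the receptor of C5a, was the neutrophil gene of the set. Mature neutrophils had 688 CPM in callus control, 555 CPM in callus GC, 714 CPM in trabecular control and 791 CPM in trabecular GC. At equal depth, 47.0%, 36.8%, 52.2% and 56.7% of them held a C5ar1 UMI, against 0.508% and 0.287% of callus B cells. Those B cells give no background for trabecular bone. Barcodes of at most 100 UMIs held C5ar1 at 25.6 CPM in control callus, and at 141 CPM (control) and 159 CPM (GC) in trabecular bone. Immature neutrophils had less C5ar1 than mature ones, at 425 and 356 CPM in callus and 259 and 253 CPM in trabecular bone. Callus monocyte clusters 4 (219.99 and 196 CPM) and 15 (274 and 264 CPM) and macrophages (187 and 172 CPM) came next.

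With GC, C5ar1 in mature neutrophils was lower in callus, at a ratio of 0.806 (0.738 to 0.880), and higher in trabecular bone, at 1.11 (1.07 to 1.14), although the trabecular direction turned to a log2 ratio of -0.17 when each library was scaled by median-ratio size factors. In the callus cluster that held both libraries, C5ar1 was 486 CPM in control [435 to 541] and 551 CPM in GC [512 to 591], opposite to the class, and the mainly control cluster stood at 790 CPM. Without clusters at least 95% from 1 library, the callus log2 ratio was 0.18. Within trabecular bone, C5ar1 was higher in GC in each neutrophil cluster with at least 15 cells of both libraries: cluster 1 (528 and 536 CPM), cluster 2 (731 and 843), cluster 3 (545 and 624), cluster 5 (236 and 324), cluster 6 (394 and 454) and cluster 10 (132 and 172), control first. The intervals were apart in clusters 5 and 10 only. Free RNA of C5ar1 in trabecular control, at 141 CPM, lay above the control level of cluster 10, and its part was not tested. Of all genes, 75.1% were higher in GC in the mature class and 58.8% in the immature class, so this direction was common. The median log2 ratio of all genes in the mature class was 0.23, above the 0.15 of C5ar1. The immature class as a whole was level, at 0.977 (0.916 to 1.04), while its 3 clusters were each higher in GC.

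Other trabecular cells moved unevenly. C5ar1 in monocytes was 49.1 CPM in control and 81.0 CPM in GC, a ratio of 1.65 (1.40 to 1.94), and both large monocyte clusters were higher in GC (94.8 and 145 CPM, 22.5 and 34.3 CPM). In mast cells or basophils it was 32.3 CPM (9 UMIs) and 175 CPM (66 UMIs), a ratio of 5.42 (2.69 to 12.4). Both members measured in that class, C3ar1 and C5ar1, passed 2-fold, beside 4.24% of all genes. In T cells it was 43.6 CPM in control (15 UMIs) and 5.46 CPM in GC (7 UMIs), and in erythroid cells 14.6 and 5.55 CPM, where the median log2 ratio of all genes was -0.61 and a minimum of 500 genes per cell turned that of C5ar1 to 1.67. The barcodes of at most 100 UMIs held C5ar1 at 141 CPM in trabecular control and 159 CPM in trabecular GC, so free RNA of this gene was plentiful, above the monocyte levels, the control mast cell or basophil level and the T and erythroid values. Its part in these values was not tested.

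**Figure D4:**
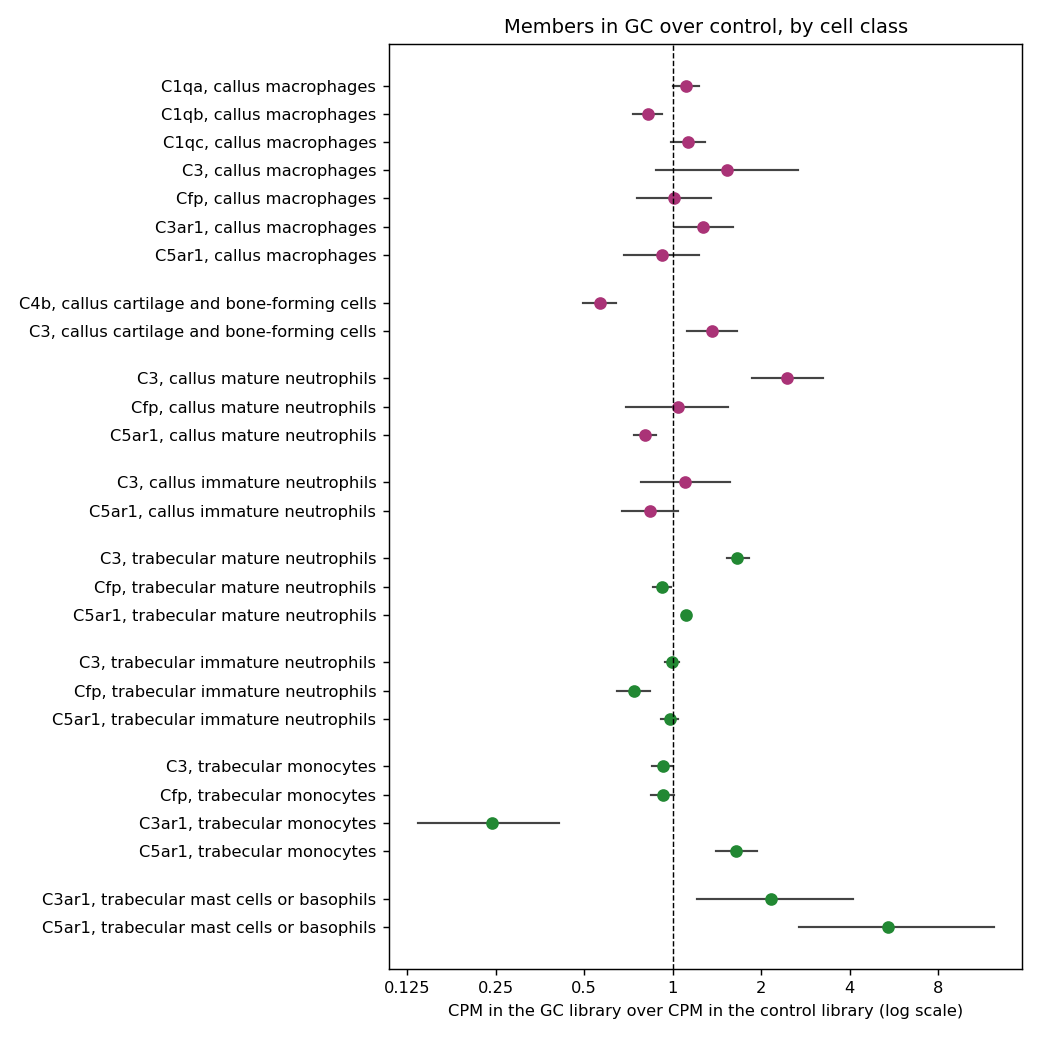
Ratio of GC to control by class on a log axis, for all members but Cfb. Lines are exact conditional 95% intervals, with callus in purple and trabecular bone in green. The C1q chains of callus macrophages are drawn singly. C3 in callus mature neutrophils lies at 2.46 and C3ar1 in trabecular monocytes at 0.243.

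Over all cells of callus, 5 of the 9 genes were higher in the GC library and 4 lower, beside 56.6% of all genes higher, and 0 passed 2-fold on the log2(CPM + 5) scale, where 0.542% of 15118 genes did. C3 (log2 ratio 0.36), C3ar1 (0.29), Cfp (0.28), C1qa (0.23) and C1qc (0.12) were higher, and C4b (-0.57), C1qb (-0.09), C5ar1 (-0.05) and Cfb (-0.04) lower. In trabecular bone 3 were higher, C5ar1 (0.38), C4b (0.19) and C1qa (0.01), and 6 lower, from C3 (-0.20) to C1qb (-0.02), beside 43.1% of all genes higher. None of the 9 passed 2-fold there, beside 1.01% of 12135 genes, and C5ar1 turned to -1.0041 without clusters at least 95% from 1 library. These bulk-like values join changes in cell numbers with changes per cell: mature neutrophils, for example, numbered 1563 and 1213 in callus and 1606 and 2663 in trabecular bone.

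The other complement genes, a list of 50, were divided as follows. In callus 32 had at least 50 UMIs. Of these 17 were higher in GC and 15 lower, beside 56.6% of all genes higher. Their median log2 ratio was 0.01, beside 0.03 for all genes. In trabecular bone 23 were measured, 13 higher and 10 lower, beside 43.1% of all genes higher. Their median was 0.03, beside -0.03 for all genes. None of either group passed 2-fold. The most abundant in callus, by their mean over both libraries, were Calr (431 CPM in control and 332 CPM in GC), Lrp1 (209 and 223 CPM, a direction that turned under median-ratio scaling), Colec12 (153 and 133 CPM), C1qbp (105 and 94.0 CPM) and Itgb2 (40.7 and 59.2 CPM). Calr and Lrp1 encode calreticulin and its partner receptor, which bind C1q on phagocytes, and Itgb2 encodes the common chain of complement receptors 3 and 4.

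In trabecular bone the most abundant were Itgam (323 and 279 CPM), which encodes the other chain of complement receptor 3, Calr (241 and 284 CPM), Itgb2 (261 and 219 CPM), the ficolin gene Fcnb (184 and 109 CPM) and C1qbp (99.9 and 120 CPM). In callus macrophages, where C1q was highest, 6 genes of the list were measured: Itgam (log2 ratio 0.37) and Itgb2 (0.26) were higher in GC, and C1qbp (-0.24), Lrp1 (-0.12), Cd93 (-0.10) and Calr (-0.04) lower. The terminal components, which form the lytic pore, were rare in callus: C8g held 66 UMIs in control and 20 in GC, C9 held 43 and 33, and C6 held 0 and 5.

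**Figure D5:**
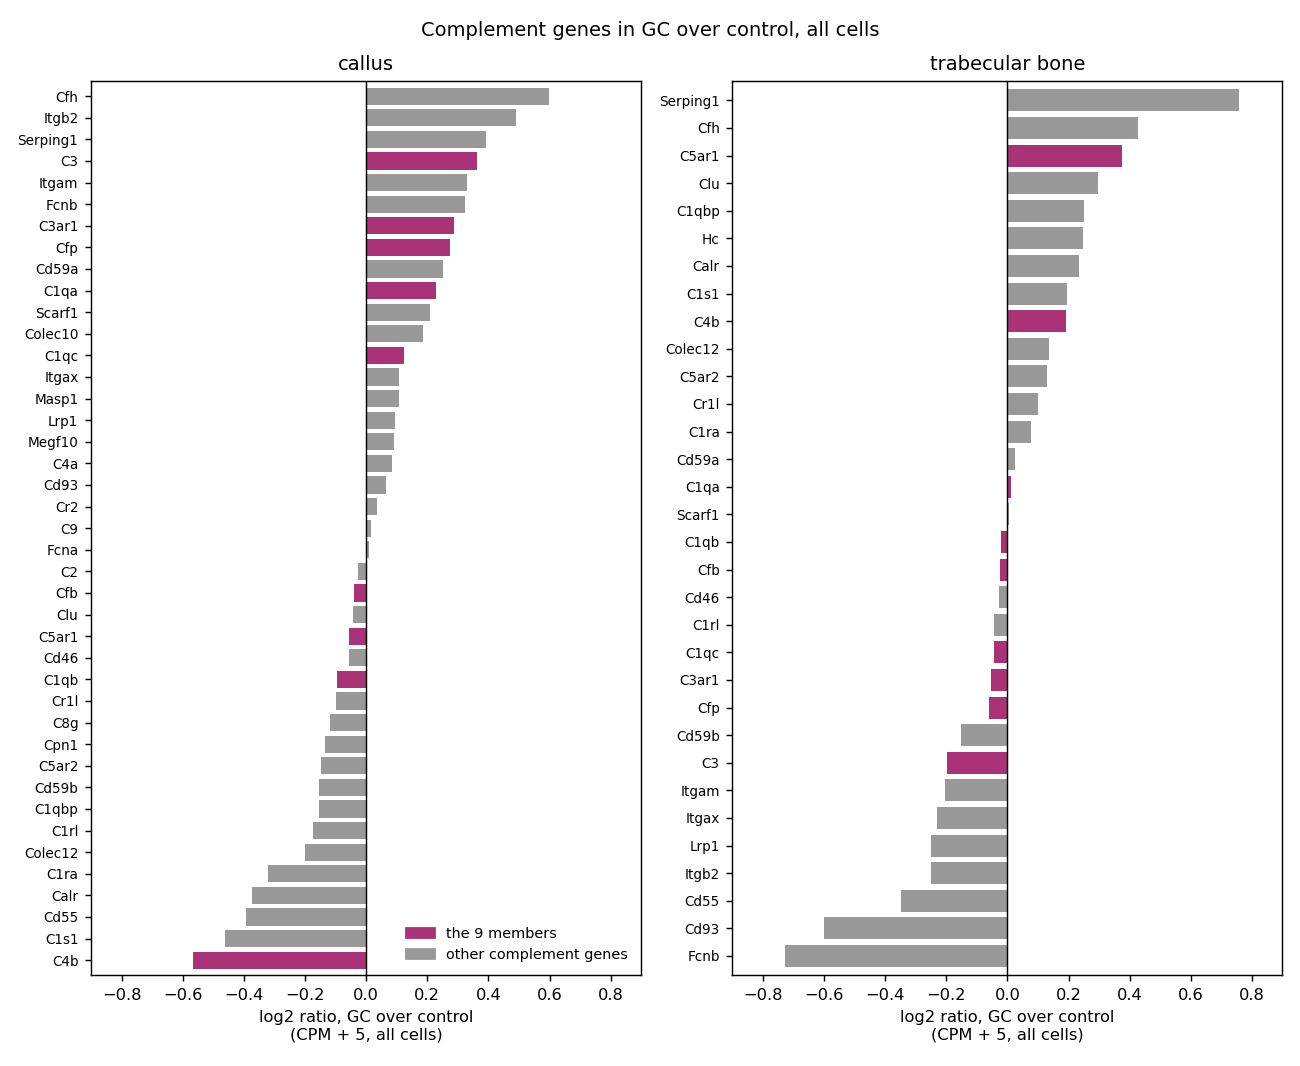
Log2 ratio of GC to control over all cells, on the log2(CPM + 5) scale, for the 9 genes (purple) and the measured genes of the 50-gene complement list (grey), in callus and trabecular bone. Bars reach to both sides of 0 in each tissue, and C4b in callus is the lowest of the 9 genes at -0.57.

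Over 52 profiles, each a class in 1 library, the genes whose log2(CPM + 5) ran most like summed C1q were Ms4a7 (Pearson r = 0.94), Trem2 (0.85), Aif1 (0.84), Fcrls (0.84) and Tmem106a (0.82). Ms4a7 and Trem2 were among the markers that named the macrophages. C4b ran most like Efemp1 (0.96), Lrrn4cl (0.94) and Abca8b (0.94), C3 like Mgst1 (0.89), Xdh (0.87) and Trem3 (0.85), and Cfb like Ccl7 (0.85), Ang (0.84) and Adh7 (0.84). Cfp ran most like Spi1 (0.88), Pirb (0.86) and Pira2 (0.85), C3ar1 like Slc7a8 (0.85), Stx3 (0.78) and Msr1 (0.77), and C5ar1 like Clec4e (0.93), Trem1 (0.91) and Fcgr4 (0.90). The profiles share libraries and depth, so these values are descriptions.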

How the data were processed

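scRNA-Seq UMI counts of 4 libraries were used as the authors deposited them, raw counts per gene and barcode from Cell Ranger (version 4 per the file headers, 5.0.1 with Seurat 3.2.0 in the submitters' processing notes, on mm10). The GC callus matrix lists 7762 called barcodes and no empty ones; the others list 6794880. In those others, cells were called by a UMI cutoff (10% of the 99th percentile of the top 3000 barcodes) or, from 500 UMIs, by a Monte Carlo test against empty droplets (10000 simulations, adjusted p of 0.01). In GC callus all 7762 listed barcodes were taken as called. Control and GC callus cells were therefore called by different procedures. Barcodes with under 200 genes or over 10% mitochondrial UMIs were removed, as were the highest doublet scores (0.8% per 1000 cells; 123 to 428 cells per library).

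Each tissue was clustered by the Leiden method (resolution 1) over a graph of 15 neighbors, from 30 components of the 2000 most variable genes, leaving out 59 complement genes and mitochondrial genes. Clusters (31 callus, 30 trabecular) were named from 213 markers of 24 classes, at least 3 of them 2-fold above the other clusters and in 10% of cells. The naming rule was settled after clusters had been seen, and callus monocyte cluster 4 could not be compared as a class. Genes needed 50 UMIs over both libraries and 15 cells in each. Log2 ratios use 5 CPM added, and 2-fold is a size, not a test. The interval of a count is exact Poisson, of a ratio exact conditional and of a share Clopper-Pearson. The ratio and thinning steps were checked on simulated data.

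The members and lists were chosen with earlier results of these data known. Named genes are the 9 members, the 5 most abundant list genes in each tissue, the 3 highest and 3 lowest list ratios in the class richest in C1q, and the genes with the most similar profiles (5 for C1q, 3 for each other); C4a, C6, C8g and C9 were added after their values were seen. Scripts ran under Python 3.11.15: matplotlib 3.10.9 drew the plots, leidenalg 0.10.2 with igraph 0.11.9 clustered, scikit-learn 1.9.0 reduced dimensions, scipy 1.17.1 gave the intervals, and numpy 2.4.6, pandas 2.3.3 and numba 0.67.0 handled the tables. In all, 18 alternative settings were fixed at the start and 3 were added after seeing the data.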

Additional observations from a re-analysis of the deposited data

Results flagged for a closer look

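Given here are members whose GC to control ratio ran in opposite directions in callus and trabecular bone, with a counting interval excluding 1 in both. Members that ran in opposite directions without meeting that limit are left out. Over all cells these were C1qc, Cfp, C3ar1 and C5ar1 among others. With 1 library per group the differences between the tissues were not tested. C4b over all cells had a log2 ratio of -0.57 in callus and 0.19 in trabecular bone. Most trabecular C4b UMIs lay in stromal cells, which numbered 13 in control and 33 in GC. C3 over all cells had 0.36 in callus and -0.20 in trabecular bone, and over all neutrophils 0.96 and -0.17. C5ar1 had -0.31 in callus and 0.15 in trabecular bone in mature neutrophils, and -0.36 and 0.41 over all neutrophils. For the neutrophil values, the clusters behind the class differed between the control and GC libraries, and trabecular immature neutrophils numbered 898 in control and 475 in GC.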

How the results depend on the processing

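No paired analysis was possible because each group has 1 library and the labels give no replicate numbers. Of 1395 recomputed log2 ratios of 76 single values, 1304 had the sign reported and 1232 moved by less than the counting error. Among values whose counting interval excluded a ratio of 1, 28 reversed. Part of this agreement was fixed in advance. Dropping the minimum of UMIs changes no single ratio, and the clustering settings change no value over all cells. Merging classes changes only the merged ones. These counts therefore do not measure how stable the values are. Causes were not tested. C1q in callus macrophages, GC over control, was 0.01 and ranged from -0.07 to 0.03. At Leiden resolutions 0.5 and 2 the callus macrophages were 64 control and 66 GC cells, with 1943 and 1566 of the 2595 and 1959 C1q UMIs. Its level over all other callus cells was 516 times and became 769.6 with the members kept in clustering, 117 with macrophages and monocytes as 1 class, 430 with median-ratio size factors, 263 with the mean of per-cell CPM, 302 with thinned cells and 564.4 without clusters at least 95% from 1 library (chosen after seeing the data). In the control library, with 10% free RNA taken off, 474 became 1374.9. For GC callus this was not run, since its matrix lists no empty barcodes. Genes of the 50-gene list higher in GC were 17 of 32 measured in callus and 13 of 23 in trabecular bone, beside 56.6% and 43.1% of all genes. They were 5 and 5 with thinned cells and 26 and 22 with no minimum of UMIs. The number of genes measured changes with these settings. Of all genes it was 15118 in callus and 12135 in trabecular bone, 10478 and 7491 with thinned cells, and 24314 and 20009 with no minimum. Members higher in GC in trabecular bone were 3, and 5 without clusters at least 95% from 1 library. In that setting the median log2 ratio of all genes was 0.09 in place of -0.03.

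Of the recomputed log2 ratios, 91 had the other sign. Only the 28 whose reported counting interval excluded a ratio of 1 are given here. Cfp in trabecular immature neutrophils was 0.37 (fixed minimum of 1000 UMIs), 0.26 (at least 500 genes), 0.0814 (mitochondrial share at most 5%), 0.21 (doublets kept), 0.27 (Leiden resolution 2), 0.0422 (members kept in clustering) and 0.0193 (neutrophils as 1 class). C1qb in callus osteoclasts was 0.094 (500 genes), 0.36 (mitochondrial share), 0.12 (members kept) and 0.28 (thinned), and C1q there 0.0796 (mitochondrial share). C5ar1 in trabecular erythroid cells was 1.67 (500 genes) and 0.86 (doublets kept), and in trabecular mature neutrophils -0.17 (median-ratio). Over all callus cells, Lrp1 was -0.0021 (median-ratio), C1qc -0.13 (mean of per-cell CPM) and -0.0014 (thinned), C1q -0.0493 (mean of per-cell CPM) and Cfp -0.012 (thinned). Over all trabecular cells, Calr was -0.0334 (mean of per-cell CPM) and C3 0.0061 (thinned). With neutrophils as 1 class, chosen after seeing the data, C3 in trabecular mature neutrophils was -0.17 and Cfp 0.0193. Without clusters at least 95% from 1 library, C5ar1 was 0.18 in callus mature neutrophils and -1.0041 over all trabecular cells, and in trabecular mature neutrophils C3 was -0.20 and Cfp 0.14.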

Other observations

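Clusters that could not be named also held members. The unnamed trabecular cluster 21, led by Fabp4, Acta1 and Tnnc2, had a median of 934 UMIs per cell and held C1q at 208 CPM in control (15 UMIs in 41 cells) and 160 CPM in GC (10 UMIs in 52 cells). The small trabecular monocyte cluster 27, led by Apoc2, Klf4 and Apoe, held 28 C1q UMIs in 29 GC cells (134 CPM), 27 of them in 1 cell, and had C5ar1 at 473 CPM and C3 at 167 CPM in GC. Its control part was 4 cells, too few for a level, and held 38 C1q UMIs in 1 cell.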
